A study of Saccharomyces cerevisiae with 15 samples.

Results

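The histone genes of Saccharomyces cerevisiae were followed in a xylose-utilising strain in 3 metabolic states. The set comprises HTA1 and HTA2 (H2A), HTB1 and HTB2 (H2B), HHT1 and HHT2 (H3), HHF1 and HHF2 (H4), the variant gene HTZ1 (H2A.Z) and the linker histone gene HHO1 (H1). These 10 genes were chosen by name, with earlier results of these data known, of 5923 genes named on the Affymetrix Yeast Genome S98 array. Of its 9275 probe sets, 10 carry their names. Only 4 of the probe sets belong to 1 gene, those of HTB1, HTB2, HTZ1 and HHO1. The other 6 match both copies of a gene and cannot tell them apart: 2 for HTA1/HTA2, 3 for HHT1/HHT2 and 1 for HHF1/HHF2.

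Core histones form the protein spool of the nucleosome around which DNA is wound, and in budding yeast each core histone is encoded by a pair of nearly identical genes. The copies lie as divergent pairs, H2A beside H2B and H3 beside H4, and share a promoter region within the pair. In the R64 annotation HTA1 and HTB1 are neighbours on chromosome IV, HTA2 and HTB2 as well as HHT1 and HHF1 on chromosome II, and HHT2 and HHF2 on chromosome XIV, whereas HTZ1 (chromosome XV) and HHO1 (chromosome XVI) have no histone gene beside them. Transcription of the core genes is confined largely to late G1 and S phase, when new DNA is packaged. It is activated by Spt10 and by the SBF factor (Swi4 and Swi6) and held down outside S phase by the HIR complex together with Asf1. H2A.Z is placed into nucleosomes by the SWR1 complex, often beside promoters, and H1 binds the DNA that enters and leaves a nucleosome.

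All samples were of 1 strain, VTT-C-99318, a MATα derivative of CEN.PK2-1D. It has the Pichia stipitis genes XYL1 (xylose reductase, PGK1 promoter) and XYL2 (xylitol dehydrogenase, modified ADH1 promoter) at URA3, and a further copy of its own xylulokinase gene XKS1 with kanMX (modified ADH1 promoter) at HIS3. The parent alleles are his3Δ1, trp1-289, ura3-52, leu2-3/112, MAL2-8c and SUC2, and every state shares them. Cells grew aerobically in bioreactors at 30 °C in synthetic complete medium. The states were 72 h on 50 g/l xylose, with 32 g/l xylose left (Xyl72h), 24 h on 50 g/l glucose, when glucose was gone and 13 g/l ethanol had accumulated (Glc24h, glucose derepressed), and 5 h on 50 g/l glucose, with 37 g/l left (Glc5h, glucose repressed). Each state had 3 cultures, named fermentations 0, 1 and 2, and the glucose cultures sampled at 24 h were those sampled at 5 h. Fermentation 2 was hybridised 3 times in each state, and these arrays were averaged as 1 sample, so that 15 arrays stand for 9 culture samples, from 3 cultures on xylose and 3 on glucose.

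Values are linear signals after scaling of each array, with a floor of 16, and differences are between mean log2 signals. A call needs an adjusted p under 0.05 by the moderated test of limma. The adjustment was over the 5877 probe sets above the floor on at least 1 array, which include all 10 of the histone genes. The p-values rest on the spread between cultures within states, pooled over all 3 states and moderated by limma across probe sets. The main fit had no block, so the 5 h and 24 h samples of a glucose culture were treated as separate. A signal measures a transcript against all others in the RNA of a whole culture, so a smaller share of cells in S phase and fewer transcripts per cell cannot be told apart. The states also differed in growth rate, culture age and sugar, which cannot be told apart either. Different probe sets bind with different strength, and therefore no signal was compared between genes.

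The labels were checked with marker genes. ADH2, FBP1, PCK1, ICL1 and MLS1, which are switched off by glucose, had mean signals of 31.2 to 242 in Xyl72h, 417 to 987 in Glc24h and 16 to 22 in Glc5h. The α cell genes MFALPHA1, MFALPHA2 and STE3 had means of 55.4 to 1276, and the a cell genes MFA1 and STE2 lay at the floor in every culture, with MFA2 at no more than 25.1. The ratio of the 3′ to the 5′ actin probe set, a sign of RNA quality, was 1.88 to 2.77 in Xyl72h, 2.18 to 10.3 in Glc24h and 1.86 to 2.29 in Glc5h. The value of 10.3 belonged to Glc24h fermentation 1, the next in that state being 3.01.

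Mean signals of the histone genes were lower in xylose-grown and in derepressed cells than in repressed cells. All 10 probe sets had a lower mean log2 signal in Xyl72h than in Glc5h (56.1% of all probe sets tested). All 10 were also lower in Glc24h than in Glc5h (53.0% of all), although 2 of them turned in each of reference gene scaling, quantile normalisation and cyclic loess. Their median log2 difference was -1.09 in Xyl72h minus Glc5h, against -0.02 over all probe sets tested, and -0.94 in Glc24h minus Glc5h, against -0.03. In Xyl72h minus Glc24h the median was -0.08, against 0.00, with 6 of 10 below 0, near the share of all probe sets (53.6%). Both comparisons with Glc5h share those cultures. The mean signals ran in the order Xyl72h, Glc24h, Glc5h from low to high for 6 probe sets, and Glc24h, Xyl72h, Glc5h for the other 4. Neighbours in these orders passed the test between Xyl72h and Glc24h for HHO1 only.

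**Figure D1:**
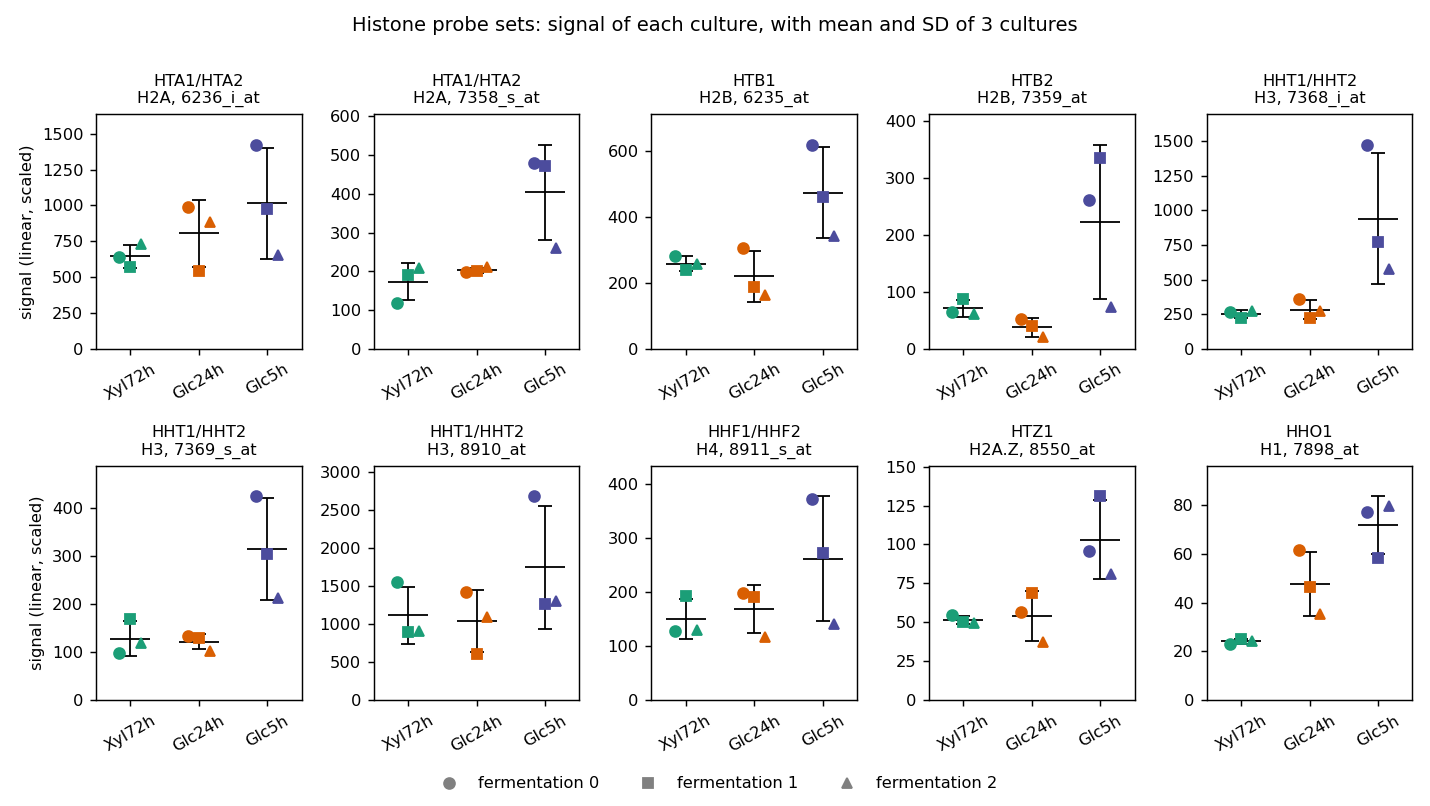
Scaled linear signal of each of the 10 histone probe sets (one panel each, y axis from 0, own scale) in Xyl72h, Glc24h and Glc5h. Symbols are fermentations 0, 1 and 2, bars are mean and SD of 3 cultures, and Glc5h has the highest mean in every panel, with fermentation 2 the lowest Glc5h culture in 8 of 10.

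In Xyl72h minus Glc5h, 5 of 10 histone probe sets were called lower, where 14.0% of all probe sets tested were, and 0 were called higher (11.7% of all). At an unadjusted p under 0.05 there were 7, but the share of all probe sets at that threshold was not counted, so that no excess can be read from it. Every xylose culture lay below every repressed culture for 6 of the 10 (21.6% of all). In Glc24h minus Glc5h, 6 of 10 were called lower (19.1% of all) and 0 higher (14.4%), with the groups apart for 6 (23.9%). In Xyl72h minus Glc24h, 1 of 10 was called lower (2.26% of all) and 0 higher (3.37%). There, 1 lay lower in every xylose culture (10.3%) and 1 higher in every one (14.5%). The F-test over the 3 states passed for 7 of 10 at an adjusted p under 0.05 (34.3% of all) and for 5 of 10 at an unadjusted p under 0.01 (29.5%), the threshold in the methods of the study.

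The counts moved with single cultures. In Xyl72h minus Glc5h, 8 probe sets were called without Glc5h fermentation 2, but 2 without Xyl72h fermentation 0 and 3 without Xyl72h fermentation 2, Glc5h fermentation 0 or Glc5h fermentation 1. The number of all probe sets called in either direction moved too, from 1508 with all cultures to 1778 without Glc5h fermentation 2. It was 953 without Xyl72h fermentation 0, and 1002, 1062 and 1260 in the other 3 fits. In Glc24h minus Glc5h, 2 were called without Glc24h fermentation 2 or without Glc5h fermentation 0, and 4 without Glc24h fermentation 1, the sample with the high actin ratio. Of all probe sets, 1578, 1576 and 1848 were called in either direction in these fits, against 1969 with all cultures. Scaling on reference genes (ALG9, TAF10, TFC1, UBC6 and ACT1) left 2, 1 and 0 calls in Xyl72h minus Glc5h, Glc24h minus Glc5h and Xyl72h minus Glc24h. It moved the median of all probe sets to 0.16 in Xyl72h minus Glc5h and 0.25 in Glc24h minus Glc5h. Against these, the medians of the histone probe sets were -0.60 and -0.36. Of the 5910 probe sets tested with this scaling, 1494 were called in Xyl72h minus Glc5h, 78.1% of them higher. In Glc24h minus Glc5h 2052 were called, 74.3% of them higher, so that few of all probe sets were called lower there as well.

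**Figure D2:**
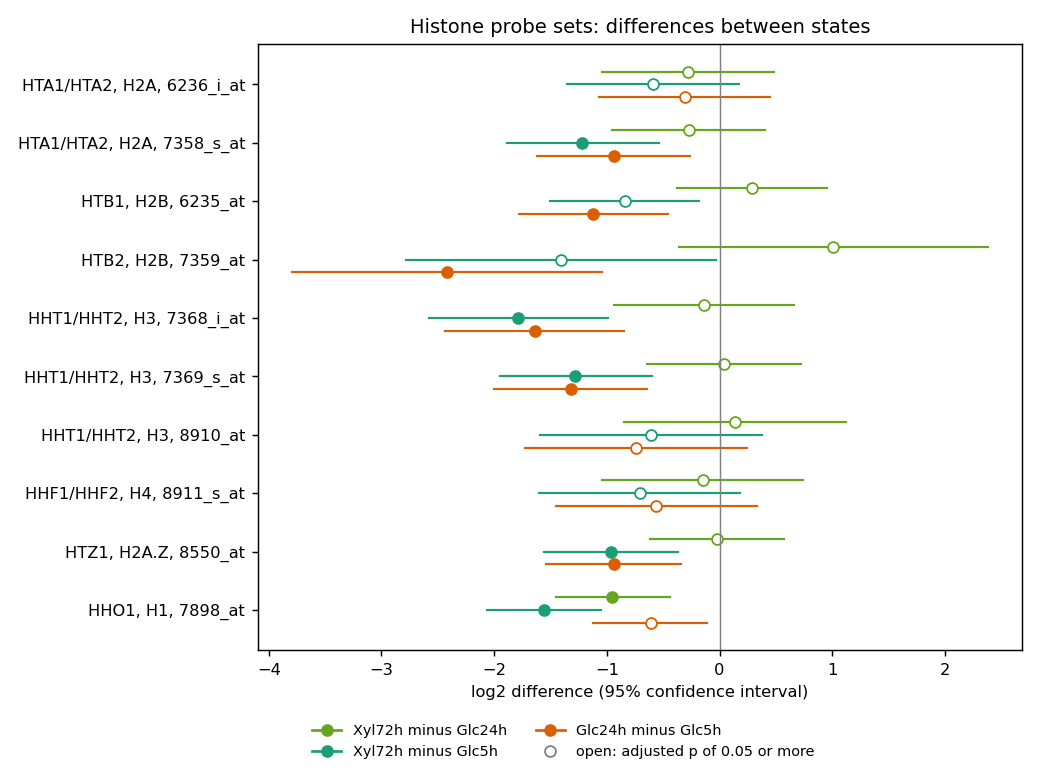
Log2 difference of each histone probe set with its 95% confidence interval (x axis) for Xyl72h minus Glc24h, Xyl72h minus Glc5h and Glc24h minus Glc5h, filled where the adjusted p was under 0.05. All points of the comparisons with Glc5h lie below 0, from -2.42 to -0.31, while those of Xyl72h minus Glc24h lie on both sides of 0, from -0.95 to 1.01.

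H3 forms, with H4, the tetramer at the centre of the nucleosome. It was read by 3 probe sets shared by HHT1 and HHT2. One of them, 7368_i_at, is of a kind that the array maker marks as incomplete. It read 265, 220 and 273 in Xyl72h, 358, 222 and 269 in Glc24h and 1474, 768 and 576 in Glc5h (fermentations 0, 1 and 2). Every xylose and derepressed culture lay below every repressed one, and the xylose and derepressed cultures overlapped. Against Glc5h it fell by 1.79 on the log2 scale in Xyl72h (SE 0.34, 3.45-fold, adjusted p = 0.00901, limma) and fell by 1.64 in Glc24h (SE 0.34, 3.13-fold, adjusted p = 0.00913). The call in Xyl72h held under all 21 alternative settings, with adjusted p from 0.000437 to 0.0357, and the other under 20, the exception being reference gene scaling (adjusted p = 0.0505). In Xyl72h minus Glc24h its difference was -0.14 (95% confidence interval -0.94 to 0.66).

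The second H3 probe set, 7369_s_at, had 97.2, 168 and 119 in Xyl72h, 133, 129 and 103 in Glc24h and 424, 304 and 213 in Glc5h. Again no repressed culture was as low as any other culture. Against Glc5h signals fell by 1.28 in Xyl72h (SE 0.29, 2.42-fold, limma adjusted p = 0.0173) and fell by 1.32 in Glc24h (SE 0.29, 2.49-fold, adjusted p = 0.0114). The call in Xyl72h was lost without Xyl72h fermentation 0 and without Xyl72h fermentation 2. It was also lost with only the 2 states in the fit (adjusted p = 0.0607) and under reference gene scaling (adjusted p = 0.0722). The call in Glc24h was lost under reference gene scaling only (adjusted p = 0.0742).

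The third, 8910_at, passed in no comparison. Its signals were 892 to 1549 in Xyl72h, 605 to 1422 in Glc24h and 1259 to 2682 in Glc5h, so that the states overlapped. The log2 difference was -0.61 in Xyl72h minus Glc5h (95% interval -1.59 to 0.38) and -0.74 in Glc24h minus Glc5h (-1.73 to 0.24). The second of these was called with the fermentation number as a block (limma adjusted p = 0.0302) and turned to 0.06 under quantile normalisation and 0.02 under cyclic loess. The intervals of the 3 H3 probe sets overlapped, and the sizes of their differences were not tested against each other. Neither HHT1 nor HHT2 could be read on its own.

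H4 was read by 1 probe set for HHF1/HHF2, 8911_s_at, which passed in no comparison. It gave 129, 194 and 130 in Xyl72h, 198, 191 and 118 in Glc24h and 372, 272 and 141 in Glc5h. Repressed fermentation 2 lay within the range of the other states, and the other 2 repressed cultures lay above it. The log2 difference was -0.71 in Xyl72h minus Glc5h (SE 0.38, 95% interval -1.60 to 0.18, limma adjusted p = 0.218) and -0.56 in Glc24h minus Glc5h (SE 0.38, adjusted p = 0.306). Without Glc5h fermentation 2 the first was called (adjusted p = 0.0366).

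H2A, which pairs with H2B on the outer faces of the nucleosome, had 2 shared probe sets for HTA1/HTA2. The probe set 7358_s_at read 118, 191 and 209 in Xyl72h, 198, 200 and 210 in Glc24h and 479, 471 and 261 in Glc5h. The repressed cultures were above all others, with the smallest gap at fermentation 2. Against Glc5h the signal fell by 1.22 in Xyl72h (SE 0.29, 2.32-fold, limma adjusted p = 0.0207) and fell by 0.94 in Glc24h (SE 0.29, 1.92-fold, adjusted p = 0.0411). The call in Glc24h was lost with the fermentation number as a block (adjusted p = 0.0631) and under 14 of 21 settings in all, and the call in Xyl72h under 6, among them those without Xyl72h fermentation 0, Glc5h fermentation 0 or Glc5h fermentation 1.

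The other H2A probe set, 6236_i_at, has the same mark of an incomplete set as 7368_i_at of H3. It had 637, 571 and 729 in Xyl72h, 992, 543 and 882 in Glc24h and 1424, 972 and 651 in Glc5h. All states overlapped, and no comparison passed. The log2 difference was -0.59 in Xyl72h minus Glc5h (95% interval -1.35 to 0.17) and -0.31 in Glc24h minus Glc5h (-1.07 to 0.45), the second of which turned positive under reference gene scaling, quantile normalisation and cyclic loess.

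H2B was the only core histone whose copies had a probe set each. HTB1 read 281, 238 and 256 in Xyl72h, 306, 188 and 164 in Glc24h and 618, 460 and 342 in Glc5h. All repressed cultures were higher than all others. HTB1 fell by 1.12 in Glc24h (SE 0.28, 2.18-fold, limma adjusted p = 0.0192) against Glc5h. In Xyl72h minus Glc5h its difference of -0.84 (SE 0.28, 95% interval -1.50 to -0.18) missed the threshold at an adjusted p of 0.0672 and passed with the fermentation number as a block (adjusted p = 0.0212). The call in Glc24h was lost without Glc24h fermentation 1, Glc24h fermentation 2 or Glc5h fermentation 0. Under reference gene scaling the difference was -0.54 and the call was lost (adjusted p = 0.222). It was also lost with no filter on low values (adjusted p = 0.0517) and with only the 2 states in the fit (adjusted p = 0.0657).

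HTB2, the other H2B gene, had the largest difference of the set. It read 63.9, 87.4 and 61.2 in Xyl72h, 52.1, 39.2 and 20.6 in Glc24h and 261, 335 and 73.2 in Glc5h. The derepressed cultures were below all others, and repressed fermentation 2 lay among the xylose cultures. HTB2 fell by 2.42 in Glc24h (SE 0.59, 5.34-fold, limma adjusted p = 0.0167) against Glc5h, and this call was lost without Glc24h fermentation 2 or Glc5h fermentation 0. The difference in Xyl72h minus Glc5h was -1.41 (SE 0.59, adjusted p = 0.122), which passed with the fermentation number as a block (adjusted p = 0.0423) and without Glc5h fermentation 2 (adjusted p = 0.0105). Against Glc24h all xylose cultures were higher, by a log2 difference of 1.01 that did not pass (SE 0.59, 95% interval -0.36 to 2.38, adjusted p = 0.427).

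Whether the H2B copies responded alike was tested with the log2 ratio of HTB1 to HTB2 in each culture, of which only the change between states can be read. It was 2.14, 1.44 and 2.06 in Xyl72h, 2.55, 2.27 and 2.99 in Glc24h and 1.25, 0.46 and 2.23 in Glc5h. The derepressed cultures were the highest as a group, with means of 1.88 ± 0.38 in Xyl72h, 2.60 ± 0.37 in Glc24h and 1.31 ± 0.89 in Glc5h (SD, n = 3). The states did not pass an exact permutation test of the F statistic over all 280 partitions (p = 0.0571, where the smallest possible is 0.00357), nor with the states permuted within fermentations (exact permutation p = 0.0556 over 36 arrangements, the smallest possible being 0.0278). Between Glc24h and Glc5h the difference was 1.29 (exact two-sided permutation p = 0.1, the smallest that 3 against 3 can give), and within fermentations 0, 1 and 2 it was 1.31, 1.81 and 0.77. In Xyl72h minus Glc24h it was -0.42, -0.82 and -0.93 within fermentations, and 3 pairs cannot give a two-sided p below 0.25. When single cultures were left out, the lowest exact permutation p over the states was 0.0107, without Glc5h fermentation 2. It was higher than with all cultures without Xyl72h fermentation 0, 1 or 2 (exact permutation p = 0.107, 0.1 and 0.114) and without Glc24h fermentation 0 (0.15).

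HTZ1, the H2A.Z gene, had signals of 54.8, 50.4 and 49.7 in Xyl72h, 56.4, 68.9 and 37.1 in Glc24h and 95.8, 131 and 81.2 in Glc5h. The repressed cultures were above all others, and the xylose cultures were close together inside the range of the derepressed ones. Against Glc5h HTZ1 fell by 0.96 in Xyl72h (SE 0.26, 1.95-fold, limma adjusted p = 0.03) and fell by 0.94 in Glc24h (SE 0.26, 1.92-fold, adjusted p = 0.0255). Each call was lost under 8 of 21 settings. Single cultures were enough: every one of the xylose cultures and Glc5h fermentations 0 and 1 for Xyl72h, and Glc24h fermentations 0 and 2 and Glc5h fermentations 0 and 1 for Glc24h.

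HHO1, the linker histone gene, was the only member called between xylose and derepressed cells. Its signals were 23.1, 24.9 and 24.4 in Xyl72h, 61.6, 46.2 and 35.2 in Glc24h and 77.3, 58.1 and 79.7 in Glc5h. The xylose cultures were the lowest and lay close to the floor, while the derepressed and repressed cultures overlapped. HHO1 fell by 1.56 in Xyl72h against Glc5h (SE 0.22, 2.94-fold, limma adjusted p = 0.00263), a call that held under all 21 settings. Against Glc24h it fell by 0.95 (SE 0.22, 1.93-fold) at an adjusted p of 0.0487, just inside the threshold. That call was lost with the fermentation number as a block (adjusted p = 0.061) and in 18 of 21 settings, leaving out any 1 culture other than Glc24h fermentation 2 included, with adjusted p from 0.0299 to 0.22. In Glc24h minus Glc5h its difference was -0.61 (SE 0.22, adjusted p = 0.0639).

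The probe sets of 1 gene each were then compared as ratios, 6 in all. HTB1/HTB2 was planned, and the others were chosen after their values were seen. The log2 ratio of HTB1 to HHO1 was 3.42 ± 0.18 in Xyl72h, 2.18 ± 0.15 in Glc24h and 2.70 ± 0.51 in Glc5h (SD, n = 3), with every xylose culture above every other culture. Its exact permutation p over the 3 states was 0.0107, and 0.0643 after Benjamini-Hochberg adjustment over the 6 ratios. Permuted within fermentations it was 0.0556, and 0.167 after adjustment. HTB1 to HTZ1 was 2.32 ± 0.07, 2.01 ± 0.51 and 2.19 ± 0.45 in Xyl72h, Glc24h and Glc5h (exact permutation p = 0.675). The other 4, HTB1/HTB2 included, had adjusted exact permutation p of 0.118 to 0.159. No ratio passed after adjustment.

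**Figure D3:**
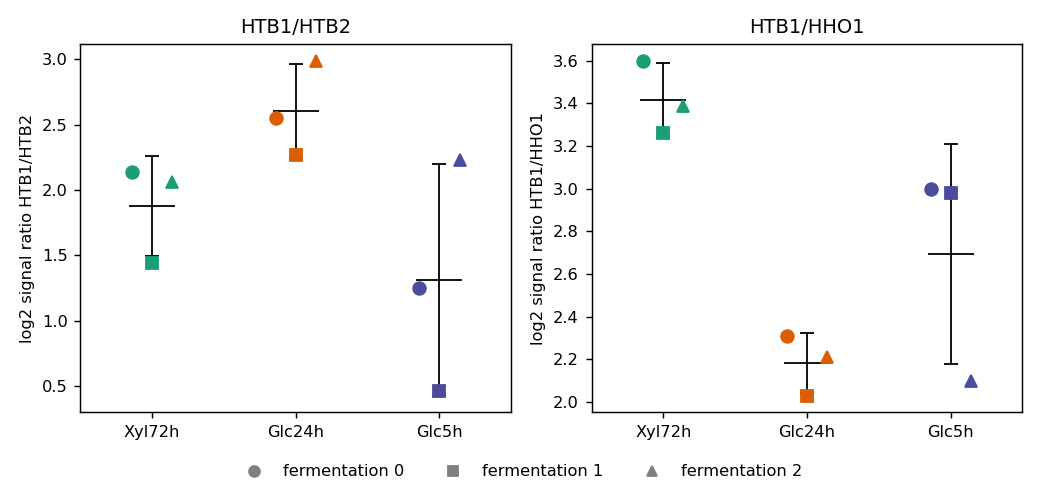
Log2 signal ratios of HTB1 to HTB2 and of HTB1 to HHO1 (y axes, each with its own scale, not from 0) in each culture of Xyl72h, Glc24h and Glc5h, with symbols for fermentations and bars for mean and SD of 3 cultures. HTB1 to HTB2 is highest on average in Glc24h (2.60) and HTB1 to HHO1 in Xyl72h (3.42), and only the change between states can be read.

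Taken over all 10 probe sets, the spread of histone signals between cultures was largest under repression, though not for each probe set. The SD between cultures on the log2 scale, as a root mean square over the 10 probe sets, was 0.29 in Xyl72h, 0.45 in Glc24h and 0.63 in Glc5h, against 0.35, 0.46 and 0.47 over all probe sets tested. Repeat hybridisations of fermentation 2 differed by 0.16, 0.15 and 0.13. The largest SD between cultures was that of HTB2 in Glc5h (1.18). HTB1 (0.47 against 0.43), 8910_at (0.63 against 0.61), HTZ1 (0.46 against 0.35) and HHO1 (0.40 against 0.25) spread more in Glc24h than in Glc5h. Fermentation 2 was the lowest Glc5h culture for 8 of 10 histone probe sets, and for 36.4% of all probe sets with a spread. In Xyl72h no fermentation was lowest for more than 4 of 10 (30.3% to 37.3% of all), and in Glc24h fermentation 2 was lowest for 6 (28.9% of all).

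Genes that drive DNA replication and the entry into S phase were read as a list of 20, of which 19 were tested. In Xyl72h minus Glc5h 12 fell (14.0% of all probe sets tested) and 0 rose (11.7% of all), with a median of -0.87. In Glc24h minus Glc5h 12 fell (19.1% of all) and 0 rose (14.4%), with a median of -0.85, and in Xyl72h minus Glc24h none was called (median -0.11). CDC21, CDC45 and MCD1 lay at the floor in every Xyl72h and Glc24h culture and were tested only because of Glc5h, so that they could not rise. Without them 9 of 16 fell in each comparison with Glc5h, with medians of -0.85 in Xyl72h and -0.82 in Glc24h. PRI1, a DNA primase subunit, averaged 17.3 ± 1.17 in Xyl72h, 16.3 ± 0.527 in Glc24h and 28.2 ± 1.66 in Glc5h, with log2 differences of -0.70 in Xyl72h minus Glc5h and -0.79 in Glc24h minus Glc5h (limma adjusted p = 0.00274 and 0.0011). Its Xyl72h and Glc24h means lay close to the floor of 16, which bounds these differences and narrows the SD. The other primase gene, PRI2, averaged 22.4 ± 5.59 in Xyl72h, 16 in Glc24h, all at the floor, and 43.1 ± 8.35 in Glc5h. CDC21, encoding thymidylate synthase, averaged 38.5 ± 9.65 in Glc5h, so that both log2 differences were -1.24 or beyond against the floor of 16. CLN1, a G1 cyclin gene, averaged 18 ± 3.55, 16.2 ± 0.297 and 29.4 ± 2.84 in Xyl72h, Glc24h and Glc5h and was called lower in both against Glc5h. The Glc24h mean of CLN1 was close to the floor as well. Of the counts of 12, both were 3 under reference gene scaling. With a floor of 32 both were 4, with signals as deposited they were 7 and 6, and with only 2 states in the fit the first was 7. In Xyl72h minus Glc5h the count was 6 without Xyl72h fermentation 0, and in Glc24h minus Glc5h it was 6 without Glc24h fermentation 2 and 7 without Glc24h fermentation 1 or Glc5h fermentation 1.

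Of 10 regulators of histone genes 6 were tested. On all arrays HIR1, SPT10, SPT21 and SWI4 were at the floor and gave no difference. HIR2, a subunit of the HIR repressor, averaged 17 ± 1.71 in Xyl72h, 29.4 ± 6.69 in Glc24h and 27.9 ± 2.46 in Glc5h, and fell by 0.72 in Xyl72h against Glc5h (SE 0.19, limma adjusted p = 0.0277). YTA7, an ATPase that acts at histone genes, averaged 44.1 ± 11 in Xyl72h, 57.8 ± 12.2 in Glc24h and 27.3 ± 2.93 in Glc5h, and rose by 1.06 in Glc24h against Glc5h (SE 0.23, adjusted p = 0.0099). No other member of this list was called, so that 1 of 6 was lower in Xyl72h minus Glc5h (14.0% of all) and 1 of 6 higher in Glc24h minus Glc5h (14.4% of all).

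All 13 histone chaperones and assembly factors were tested, and 5 fell in each comparison with Glc5h, where 14.0% of all probe sets did in Xyl72h and 19.1% in Glc24h. SPT6 lay at the floor in every Xyl72h and Glc24h culture and could not rise, and without it 5 of 12 fell. KAP114, called lower in both comparisons, averaged 16.2 ± 0.402 in Xyl72h and 16.1 ± 0.187 in Glc24h, close to the floor. Its Glc5h mean was 37.9 ± 16.9. ASF1, the H3 and H4 chaperone that also works with the HIR complex, averaged 74.4 ± 15.2 in Xyl72h, 33.3 ± 2.39 in Glc24h and 78.2 ± 11 in Glc5h. It rose in Xyl72h by 1.14 against Glc24h (SE 0.18, limma adjusted p = 0.0155) and fell by 1.22 in Glc24h against Glc5h (SE 0.18, adjusted p = 0.00216). POB3 and SPT16, the subunits of the FACT complex that opens nucleosomes for polymerases, averaged 58.5 ± 9.91 and 42.7 ± 6.16 in Xyl72h, 58.6 ± 13.5 and 49.2 ± 9.4 in Glc24h, and 172 ± 41.9 and 91.3 ± 19.8 in Glc5h. They were called lower in Xyl72h and in Glc24h against Glc5h, as was VPS75, a chaperone partner of the acetyltransferase Rtt109, with 20 ± 3.58, 18.3 ± 3.15 and 63.1 ± 16.4 in Xyl72h, Glc24h and Glc5h. VPS75 was thus near the floor in Xyl72h and Glc24h. Under reference gene scaling 3 and 2 of the list were called lower.

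Of 13 genes of the SWR1 complex, which exchanges H2A for H2A.Z, 11 were tested and 2 fell in each comparison with Glc5h, a share near that of all probe sets (14.0% in Xyl72h and 19.1% in Glc24h). These were RVB1 and RVB2, ATPases found in several other complexes too. RVB2 averaged 43 ± 6.25 in Xyl72h, 32.1 ± 10 in Glc24h and 114 ± 9.26 in Glc5h, with log2 differences of -1.41 in Xyl72h minus Glc5h and -1.87 in Glc24h minus Glc5h (SE 0.22, limma adjusted p = 0.00406 and 0.000809). For RVB1 they were -1.22 (adjusted p = 0.0495) and -1.77 (adjusted p = 0.0097). The median of the list was -0.08 in Xyl72h minus Glc5h and 0.00 in Glc24h minus Glc5h.

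Few genes of enzymes that modify histones were called, in numbers near the shares of all probe sets called lower (14.0% in Xyl72h and 19.1% in Glc24h against Glc5h) and higher (11.7% and 14.4%). Of 11 acetyltransferase genes 10 were tested, with 1 rise and 1 fall in each comparison with Glc5h. HPA2 rose, at 57.4 ± 11.9 in Xyl72h, 43 ± 7.55 in Glc24h and the floor in Glc5h (log2 differences of at least 1.82 and 1.41), and ELP3 of Elongator fell. HPA2 was at the floor in every Glc5h culture and was tested only because of the other states, so that it could not fall. GCN5, SAS3, RTT109 and HAT1 lay at the floor in every Xyl72h and Glc24h culture and were tested only because of Glc5h, so that they could not rise. Without them 6 were tested, with the same calls. Of 13 deacetylase genes 6 were tested, or 5 without HST4, which lay at the floor in every Xyl72h and Glc24h culture. HST2, a sirtuin gene, rose in Xyl72h by 1.61 and in Glc24h by 1.44 against Glc5h (SE 0.46, limma adjusted p = 0.0371 and 0.0443), while RPD3, the catalytic subunit of a major deacetylase complex, had differences of -0.66 and -0.61 (SE 0.19, adjusted p = 0.0404 and 0.0417). Of 8 methylation and ubiquitination genes 6 were tested, or 5 without UBP8, which lay at the floor in the same cultures. RAD6, the ubiquitin-conjugating enzyme of H2B, had differences of -1.25 in Xyl72h and -1.17 in Glc24h against Glc5h (SE 0.30, adjusted p = 0.0201 and 0.0194), and SET1, the H3 methyltransferase gene, rose in Glc24h by 0.72 (SE 0.22, adjusted p = 0.0394). Of 12 genes of nucleosome remodellers 10 were tested and 1, SFH1 of the RSC complex, was called lower in each comparison with Glc5h, below the shares of all probe sets (14.0% and 19.1%). None of these 3 groups or of the remodellers had a call in Xyl72h minus Glc24h.

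CSE4, the H3 variant of centromeres, averaged 24.8 ± 3.61 in Xyl72h, 27.7 ± 4.23 in Glc24h and 29.9 ± 5.44 in Glc5h and passed in no comparison. Its differences were -0.26 in Xyl72h minus Glc5h and -0.11 in Glc24h minus Glc5h. Of the 5 reference genes none was called, with medians of -0.26 in Xyl72h minus Glc5h, -0.66 in Glc24h minus Glc5h and 0.40 in Xyl72h minus Glc24h. TAF10 of the general transcription machinery differed most among them, by -0.94 in Xyl72h minus Glc5h (limma adjusted p = 0.117).

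**Figure D4:**
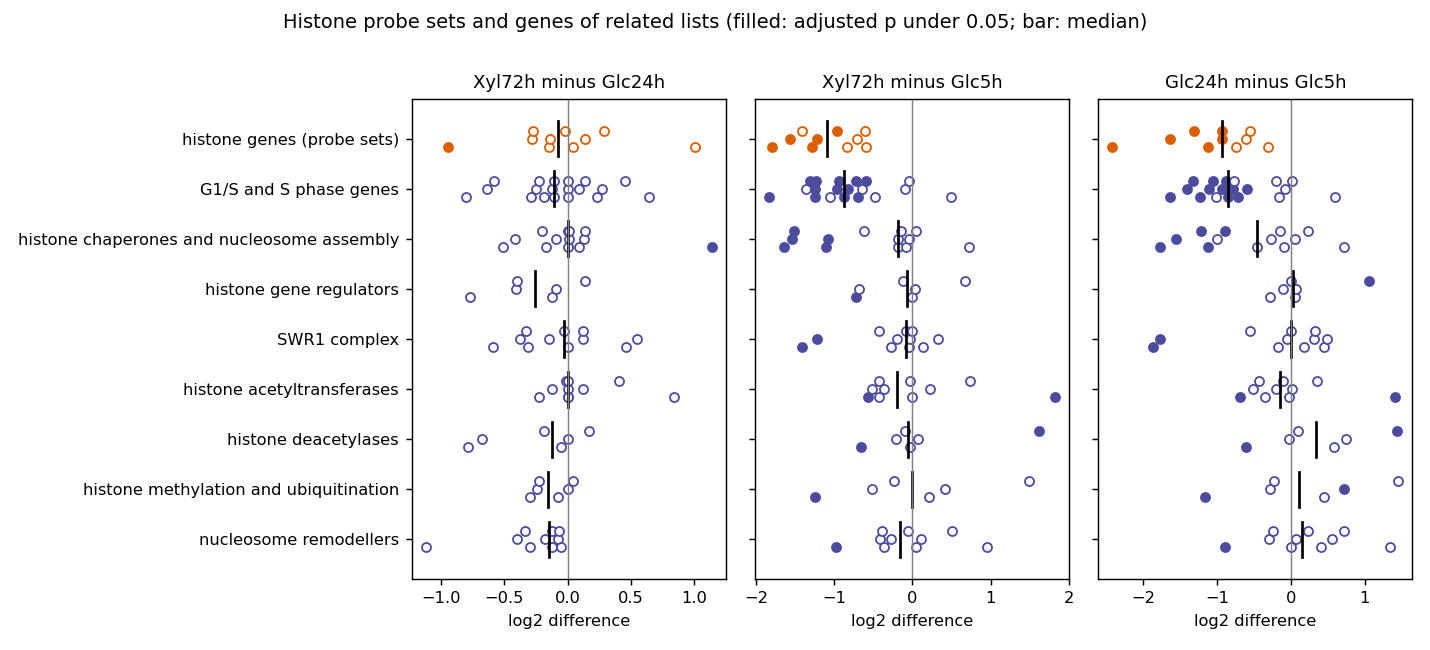
Log2 differences (x axis) of the histone probe sets, on top, and of the tested genes of related lists, in panels for Xyl72h minus Glc24h, Xyl72h minus Glc5h and Glc24h minus Glc5h. Filled points had an adjusted p under 0.05, black bars are list medians, and in the comparisons with Glc5h the medians of the histone genes (-1.09 and -0.94) and the G1/S and S phase genes (-0.87 and -0.85) are the lowest drawn.

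Probe sets whose pattern was most like that of H2B were sought among 4977 probe sets of 1 gene, by Pearson's r with the mean centred log2 signal of HTB1 and HTB2 over the 9 culture samples. DIF1 had the highest r, 0.98. It regulates the import of small ribonucleotide reductase subunits into the nucleus, and averaged 43.2 ± 3.22 in Xyl72h, 29.8 ± 8.88 in Glc24h and 68.4 ± 20.9 in Glc5h. MET22 followed with 0.96, and SEC21, MES1 and PUS7 with 0.95 each. An r over 0.8 was reached by 655 probe sets, so that the pattern was a common one on these arrays.

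For HHO1, sought in the same way after its values had been seen, the highest r were 0.95 for MET14, NOT3 and RDH54 and 0.94 for SAM2 and EHT1, and 115 probe sets were over 0.8. MET14 (adenylylsulphate kinase) averaged 19.6 ± 3.85 in Xyl72h, 88.5 ± 60.2 in Glc24h and 137 ± 24.9 in Glc5h. SAM2 (S-adenosylmethionine synthetase) averaged 50.8 ± 7.77, 170 ± 19.2 and 347 ± 145 in the same states. These r are descriptions over cultures that share 3 states and carry no test.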

How the data were processed

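RNA of 9 samples, from 3 xylose cultures and 3 glucose cultures sampled at 2 times, was hybridised to 15 arrays, the 3 arrays of fermentation 2 being averaged on the log2 scale. The table deposited by the authors holds linear signal intensities from Affymetrix MicroArray Suite, each array scaled to a mean of 50.03 to 50.06 after trimming 2% at either end, although the methods of the study describe log2 values from another method, which were not used here. After removal of 60 control probe sets, arrays were scaled to a common 75th percentile (51.08) and signals under 16 were set to 16, which held for 47.1% to 56.9% of an array. Without the 3398 probe sets that were at this floor throughout, 5877 of 9275 remained for limma (version 3.58.1, R 4.3.3; lmFit and eBayes, all samples in 1 model, two-sided, Benjamini-Hochberg, called at an adjusted p under 0.05). The fit was tested on simulated data. Gene names came from the platform annotation, updated through RefSeq (R64).

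Some harvest notes in the labels give other times than the titles, and the titles, which the methods bear out, were used. Same-numbered glucose samples came from the same culture. Xylose and glucose cultures share only a number. For samples of the same number, deviations from the state means over all probe sets correlated by 0.53 to 0.58 in Xyl72h and Glc24h. In Xyl72h and Glc5h they correlated by 0.11 to 0.28, and in Glc24h and Glc5h, the samples of the same cultures, by 0.02 to 0.26. The numbers were used as a block in an alternative fit only, and the main fit and its calls took no account of a pairing. Blocked values are given where they change a call.

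The histone genes and the lists were chosen with earlier results of these data known. From each list up to 4 genes with the lowest adjusted p under 0.05 in any comparison were named, or else the gene with the largest difference, and always HIR1, SPT10, SWI4 and CSE4. Signals are means ± SD over 3 cultures. The number of arrays limits the precision. Alternatives were other scalings, floors and filters, a replicate block, pairs of states, limma's trend and robust options, 1 hybridisation of fermentation 2 and leaving out each culture. Sequences of the genes were not used here.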

Additional observations from a re-analysis of the deposited data

How the results depend on the processing

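Of 630 results of single histone probe sets under 21 alternatives, 524 kept their direction and side of the threshold, 70 lost a call, 13 gained one and 23 turned their direction, none of these a called difference. In Xyl72h minus Glc24h, where 1 probe set was called, the count was 0 under reference gene scaling, cyclic loess, floors of 4 and 32, no filter on low values, a filter on signals above the floor in every culture of a state, the replicate block, only 2 states compared, limma's trend and robust options and the first hybridisation of fermentation 2, and 0 to 1 when cultures were left out. In Xyl72h minus Glc5h the count of 5 became 2 under reference gene scaling and 3 with no filter or only 2 states, and was 2 to 8 when cultures were left out. In Glc24h minus Glc5h the count of 6 became 1, 2 and 2 under the same settings, and 2 to 6 when cultures were left out. With no filter, 993 and 1463 of all 9275 probe sets were called in either direction in these comparisons. With only 2 states they were 1195 and 1442 of 5877. The 7 that differed over the 3 states became 2 under reference gene scaling, 4 with signals as deposited and 3 with no filter, and 2 to 7 when cultures were left out. The replicate block gave 0, 7 and 6 calls in the order of comparisons above and changed no other call of a comparison than those given with the genes. Over the 3 states it gave 6, as 7358_s_at no longer passed (limma adjusted p = 0.0527, against 0.0303 without the block). The exact p of the HTB1 to HTB2 ratio was 0.0107 to 0.175 when cultures were left out and 0.0556 with the replicate block, an alternative chosen after seeing the data, as were the counts of the related lists under other settings. Directions that turned in Xyl72h minus Glc24h were those of 7369_s_at (-0.05 under reference gene scaling, -0.13 as deposited, -0.10 quantile, -0.19 loess), 8910_at (-0.04 as deposited, -0.27 quantile, -0.49 loess, -0.03 with the first hybridisation) and HTB1 (-0.06 loess). In Glc24h minus Glc5h they were those of 6236_i_at (0.28 under reference gene scaling, 0.41 quantile, 0.35 loess), 8910_at (0.06 quantile, 0.02 loess) and 8911_s_at (0.03 under reference gene scaling). When cultures were left out, differences in Xyl72h minus Glc24h also turned, with ranges of -0.21 to 0.40 for 8910_at, -0.17 to 0.22 for 7369_s_at, -0.27 to 0.17 for HTZ1 and -0.30 to 0.04 for 7368_i_at. The share of higher among all called probe sets was 59.8%, 45.5% and 42.9% in Xyl72h minus Glc24h, Xyl72h minus Glc5h and Glc24h minus Glc5h, but 41.6%, 78.1% and 74.3% under reference gene scaling and 39.3%, 48.9% and 54.9% as deposited. The causes were not tested. Of 733 results of called genes of the related lists, 591 kept the call, 142 lost it and 0 turned. Signals near the floor, such as those of HHO1 in Xyl72h, give differences that are bounded by it.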
